A study of Mus musculus with 18 samples.

Results

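The Hippo pathway was followed in mouse MPNST cell lines through 10 genes, chosen by name from the read count table, which lists 35275 genes. They are the coactivators *Yap1* (YAP) and *Wwtr1* (TAZ), the DNA-binding partners *Tead1*, *Tead2*, *Tead3* and *Tead4*, the kinases *Lats1* and *Lats2*, and *Ankrd1* and *Amotl2*, which are widely used as readouts of YAP/TAZ activity. All 10 were in the table and all 10 passed the filter on low counts, with at least 246 counts in every culture. The lines came from malignant peripheral nerve sheath tumors (MPNSTs) raised in the sciatic nerve of wild-type 129 Sv/Jae mice by an adenovirus that carried guide RNAs and Cas9 under the CMV promoter. *Nf1*, which encodes a brake on RAS signalling, was targeted in every tumor, together with p53 (*Trp53*) in the Nf1/p53 dKO or with *Cdkn2a* in the Nf1/Cdkn2a dKO, where dKO stands for double knockout. Each genotype had 3 lines, each line grew from a separate tumor, and each line was sequenced from 3 untreated cultures, giving 18 libraries of cells kept in DMEM with serum. A line therefore stands for 1 tumor, and the cells measured are those that grew in culture rather than a whole tumor.

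In the Hippo pathway the kinases MST1 and MST2 (*Stk4* and *Stk3*), with the scaffold SAV1, activate LATS1 and LATS2, whose partners are the MOB1 proteins. Active LATS kinases phosphorylate YAP and TAZ, which are then held in the cytoplasm or degraded. When the kinases are idle, YAP and TAZ enter the nucleus, bind TEAD proteins and switch on growth and matrix genes, several of which (*Lats2*, *Amotl2*) encode proteins that restrain YAP. Because this control acts on protein, the RNA levels below describe the supply of pathway components and the output of target genes, not the phosphorylation of YAP.

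The sequence letters GGAATG, the core that TEAD proteins bind, were searched on both strands of RefSeq promoters (GRCm38.p6, from 250 bases before to 50 after each transcription start). Of the 10 genes, 8 had an entry, with 12 promoters between them, and 6 of these 8 (*Yap1*, *Wwtr1*, *Tead3*, *Lats2*, *Ankrd1* and *Amotl2*) held the letters at least once, while *Tead2* and *Lats1* did not. For comparison, 14.7% of all 32851 promoters held them, as did at least 1 promoter of 16.6% of all 27025 genes with an entry. The AP-1 letters TGANTCA were in none of the 12 promoters and in 7.81% of all promoters, so no match of one motif overlapped the other there. The promoters of 4 genes are printed 5′ to 3′ on the strand of the gene, with the TEAD letters of either strand in capitals, because they belong to the coactivator gene *Yap1* and to the 3 genes known as YAP/TAZ targets, whose levels differed in direction below.
Yap1, chr9:8004547-8004846, minus strand: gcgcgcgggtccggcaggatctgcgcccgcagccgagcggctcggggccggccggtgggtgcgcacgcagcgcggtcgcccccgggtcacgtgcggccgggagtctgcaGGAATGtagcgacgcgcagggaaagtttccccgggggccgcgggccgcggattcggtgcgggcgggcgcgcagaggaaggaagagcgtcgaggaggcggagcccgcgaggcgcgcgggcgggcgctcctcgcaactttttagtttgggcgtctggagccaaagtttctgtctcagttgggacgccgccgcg
Lats2, chr14:57746074-57746373, minus strand: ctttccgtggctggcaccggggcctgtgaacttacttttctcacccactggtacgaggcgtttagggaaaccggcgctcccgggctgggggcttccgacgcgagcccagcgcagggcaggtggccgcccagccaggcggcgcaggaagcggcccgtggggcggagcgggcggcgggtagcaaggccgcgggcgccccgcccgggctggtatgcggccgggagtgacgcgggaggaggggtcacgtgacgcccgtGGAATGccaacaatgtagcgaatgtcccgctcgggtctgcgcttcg
Ankrd1, chr19:36119795-36120094, minus strand: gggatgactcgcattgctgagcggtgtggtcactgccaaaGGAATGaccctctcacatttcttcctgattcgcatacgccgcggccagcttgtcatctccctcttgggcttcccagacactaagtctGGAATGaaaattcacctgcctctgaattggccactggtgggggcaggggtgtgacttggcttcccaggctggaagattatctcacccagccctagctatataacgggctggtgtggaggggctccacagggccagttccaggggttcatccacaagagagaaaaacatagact
Amotl2, chr9:102717554-102717853, plus strand: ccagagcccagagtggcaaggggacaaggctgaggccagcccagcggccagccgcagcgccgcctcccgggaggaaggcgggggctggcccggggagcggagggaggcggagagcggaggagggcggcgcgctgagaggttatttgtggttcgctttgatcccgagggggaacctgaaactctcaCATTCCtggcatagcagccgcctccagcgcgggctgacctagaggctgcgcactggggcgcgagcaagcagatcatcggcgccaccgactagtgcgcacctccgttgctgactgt
Counted from the transcription start, the capitals begin at -141 in *Yap1*, at 5 in *Lats2*, at -210 and -123 in *Ankrd1*, and at -65 in *Amotl2*. *Wwtr1* held GGAATG at -136 from the start of its first promoter, and *Tead3* held 1 match in the first and 3 in the second of its 3 promoters. A match describes letters in this window and is not a measured binding site.

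Total counts were 19560535 to 28312207 per library (median 23149777) and 65206479 to 73065228 per line. The targeted gene *Trp53* checked the labels, with 94.1, 67.4 and 58.6 CPM (counts scaled to library size, with TMM factors) in Nf1/p53 dKO lines 1, 2 and 3 and 247, 246 and 185 CPM in Nf1/Cdkn2a dKO lines 1, 2 and 3 (log2 fold change 1.62, SE 0.23, edgeR adjusted p = 0.0361). *Nf1* stood at 27.7 to 70 CPM and 12.7 to 38.2 CPM, and *Cdkn2a* RNA at 42.9 to 363 CPM and 169 to 391 CPM, so RNA levels did not separate the genotypes at those loci. The mesenchymal markers examined were *Vim*, *Col1a1*, *Col1a2*, *Col3a1*, *Pdgfrb* and *Thy1*. These 6 genes summed to 7200 to 16900 CPM in Nf1/p53 dKO and 9870 to 16400 CPM in Nf1/Cdkn2a dKO. Single markers varied widely, with *Thy1* from 7.02 to 466 CPM over the lines. Markers of Schwann cells, the tumors' presumed lineage, were near 0, with sums of 2.92 to 7.23 CPM and 1.31 to 2.47 CPM. Leukocyte markers summed to 3.72 to 7.58 CPM and 6.56 to 8.13 CPM, and endothelial markers to 1.35 to 2.09 CPM and 0.703 to 2.13 CPM, among which *Tek* was called lower in the Nf1/Cdkn2a dKO (edgeR adjusted p = 0.0465). Epithelial markers spread from 3.58 to 740 CPM and from 8.27 to 611 CPM over the lines, almost all of it *Krt8* and *Krt18*, and crossed the genotypes.

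None of the 10 genes passed the test between genotypes, in which the counts of a line were summed and 3 lines were compared with 3 (edgeR's quasi-likelihood test, Benjamini-Hochberg adjusted p under 0.05 over 15207 genes). Over all genes 1.8% were called, 97 of them (0.638% of all genes) higher with *Cdkn2a* targeted and 177 (1.16%) lower, so that 35.4% of calls were higher, or 20.5% with raw total counts. At an unadjusted p under 0.05 there were 5 of the 10 genes, *Yap1*, *Tead1*, *Tead4*, *Lats1* and *Lats2*, against 22.4% of all genes, and all 5 were fitted higher in the Nf1/Cdkn2a dKO. That count was 1, *Lats2*, with raw total counts and 2 with upper-quartile factors. Over all genes the counts there were 3640 and 3435, against 3400 in the main fit. Among the 10 genes it was also 2 without Nf1/p53 dKO line 1 or 3 or without Nf1/Cdkn2a dKO line 1 or 3. It was 4 without line 2 of either genotype. With 1 line left out, 2668 to 3391 of all genes had such a p. *Lats2* was in each of these counts of the 10 genes. DESeq2 on the same 6 lines called *Lats2* alone (adjusted p = 0.00597), where it called 14.4% of all genes. EdgeR and DESeq2 were also run on the 18 cultures as separate samples, which counts cultures of a tumor as independent. They called 8 of the 10 genes each, with 46.5% of all genes called by edgeR and 48.9% by DESeq2. A limma-voom fit of these cultures allowed for their shared tumor by entering the line as a random effect. It called 5 of the 10 genes and 16.6% of all genes. The 3 lines of one genotype lay wholly above the 3 of the other for 4 of the 10 genes, *Yap1*, *Tead1*, *Lats1* and *Lats2*, each higher in the Nf1/Cdkn2a dKO, and 31.4% of all genes had lines that did not overlap, 14.8% in that direction. The median log2 fold change (Nf1/Cdkn2a dKO over Nf1/p53 dKO) was 0.43 over the 10 genes and -0.02 over all genes tested.

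**Figure D1:**
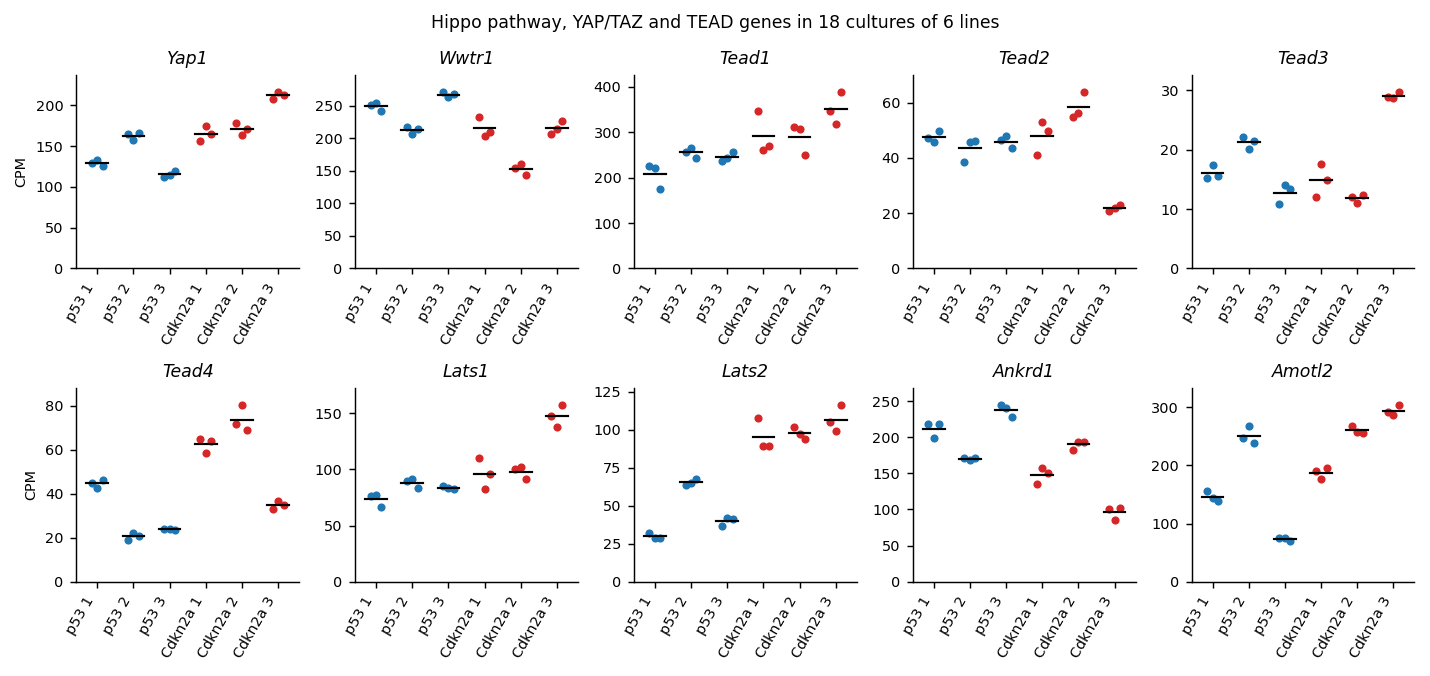
Level of each gene in CPM (vertical axes, starting at 0) in the 3 cultures of each line, with blue points for Nf1/p53 dKO lines 1 to 3, red points for Nf1/Cdkn2a dKO lines 1 to 3 and a black bar at each line's mean. *Lats2* is at 89 CPM or more in every red culture and at 67.4 CPM or less in every blue culture, whereas *Tead2* is lowest and *Tead3* highest in the line Nf1/Cdkn2a dKO 3.

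The 2 coactivators had fitted differences of opposite sign, neither past the test. *Yap1*, the founding coactivator of the pathway, stood at 129, 162 and 115 CPM in Nf1/p53 dKO lines 1, 2 and 3 (135 ± 23.8, SD, n = 3) and at 165, 172 and 214 CPM in Nf1/Cdkn2a dKO lines 1, 2 and 3 (184 ± 26.5). The lines did not overlap, but the gap between Nf1/p53 dKO line 2 and Nf1/Cdkn2a dKO line 1 was within the spread of their cultures, which ran from 157 to 166 CPM and from 156 to 174 CPM. The log2 fold change was 0.44 (SE 0.18, 95% interval 0 to 0.88, edgeR adjusted p = 0.222). *Wwtr1*, its paralog TAZ, stood at 248, 212 and 268 CPM against 216, 153 and 218 CPM (243 ± 28.6 and 196 ± 36.6). Here the groups overlapped, with Nf1/p53 dKO line 2 just under 2 of the Nf1/Cdkn2a dKO lines, and the log2 fold change was -0.31 (SE 0.19, interval -0.76 to 0.14, edgeR adjusted p = 0.377).

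Per length of summed exons, so that the genes can be compared, *Wwtr1* was the more abundant coactivator in every line. Its ratio to *Yap1* was 3.74, 2.54 and 4.5 in Nf1/p53 dKO lines 1, 2 and 3, and 2.53, 1.73 and 1.97 in the Nf1/Cdkn2a dKO lines (means 3.59 ± 0.992 and 2.08 ± 0.411). The groups were next to each other at 2.54 and 2.53 and did not cross. With the longest annotated transcript as the length, a choice made after seeing the data, the mean ratios were 2.09 and 1.21, since the exons annotated for *Yap1* sum to far more than its longest transcript. No test was applied to ratios, since with 3 lines per genotype the smallest p an exact permutation test allows is 0.1.

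Among the TEAD genes, whose proteins bring YAP and TAZ to DNA, *Tead1* was the most abundant per length in every line, but not in the same proportion. *Tead1* stood at 206, 253 and 246 CPM in Nf1/p53 dKO lines and at 293, 292 and 354 CPM in Nf1/Cdkn2a dKO lines (235 ± 25.5 and 313 ± 35.6). All Nf1/Cdkn2a dKO lines were higher, by a log2 fold change of 0.41 (SE 0.16, interval 0.04 to 0.79, edgeR adjusted p = 0.185), although cultures varied widely, from 175 to 226 CPM in Nf1/p53 dKO line 1 and from 261 to 347 CPM in Nf1/Cdkn2a dKO line 1. Cultures of Nf1/p53 dKO line 2 (243 to 266 CPM) overlapped those of Nf1/Cdkn2a dKO line 2 (249 to 311 CPM). *Tead4*, best known from the trophectoderm and from muscle precursors, stood at 44.2, 20.5 and 23.9 CPM against 62.7, 73.9 and 35.1 CPM. Its fitted log2 fold change was 0.95 (SE 0.39, interval 0.03 to 1.88, edgeR adjusted p = 0.213), and the groups crossed only where Nf1/Cdkn2a dKO line 3 lay below Nf1/p53 dKO line 1.

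The other 2 TEAD genes differed more among lines than between genotypes. *Tead2*, a TEAD gene prominent in early embryos, stood at 47.3, 43.1 and 46 CPM in Nf1/p53 dKO lines and at 47.9, 58.1 and 22 CPM in Nf1/Cdkn2a dKO lines. *Tead3*, first described in placenta, stood at 16.1, 21.1 and 12.8 CPM against 14.8, 11.9 and 29.4 CPM. Nf1/Cdkn2a dKO line 3 thus had the lowest *Tead2* and the highest *Tead3* of the 6 lines, and its cultures (20.7 to 22.8 CPM for *Tead2*, 28.7 to 29.7 CPM for *Tead3*) did not meet those of any other line. Nor did the *Tead2* cultures of Nf1/Cdkn2a dKO line 2 (54.9 to 63.8 CPM) or the *Tead3* cultures of Nf1/p53 dKO line 2 (20.2 to 22.2 CPM). The log2 fold changes were -0.09 (interval -0.9 to 0.72) for *Tead2* and 0.16 (interval -0.76 to 1.09) for *Tead3*. Without Nf1/Cdkn2a dKO line 3 they turned to 0.23 and -0.32, and neither passed the test with or without it.

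As a share of the summed TEAD level per length, *Tead1* made up 38.2, 51.1 and 49.9% of it in Nf1/p53 dKO lines, against 42.1, 38.5 and 58.2% in the Nf1/Cdkn2a dKO lines, with means of 46.4% ± 7.15 and 46.3% ± 10.5. The *Tead2* share was 24.9, 24.7 and 26.5% against 19.5, 21.7 and 10.3%, with no overlap. *Tead4* gave 30.9, 15.6 and 18.3% against 34, 36.7 and 21.7%, which overlapped. *Tead3* was the smallest share in every line, at 3.16 to 9.76%, except that with the longest transcript as length *Tead2* was smaller in Nf1/Cdkn2a dKO line 3 (10.5% against 13.8%). The summed level of *Yap1* and *Wwtr1* over that of the TEAD genes was 1.66, 1.69 and 1.89 in Nf1/p53 dKO lines and 1.23, 0.905 and 1.53 in the Nf1/Cdkn2a dKO lines, again without overlap.

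**Figure D2:**
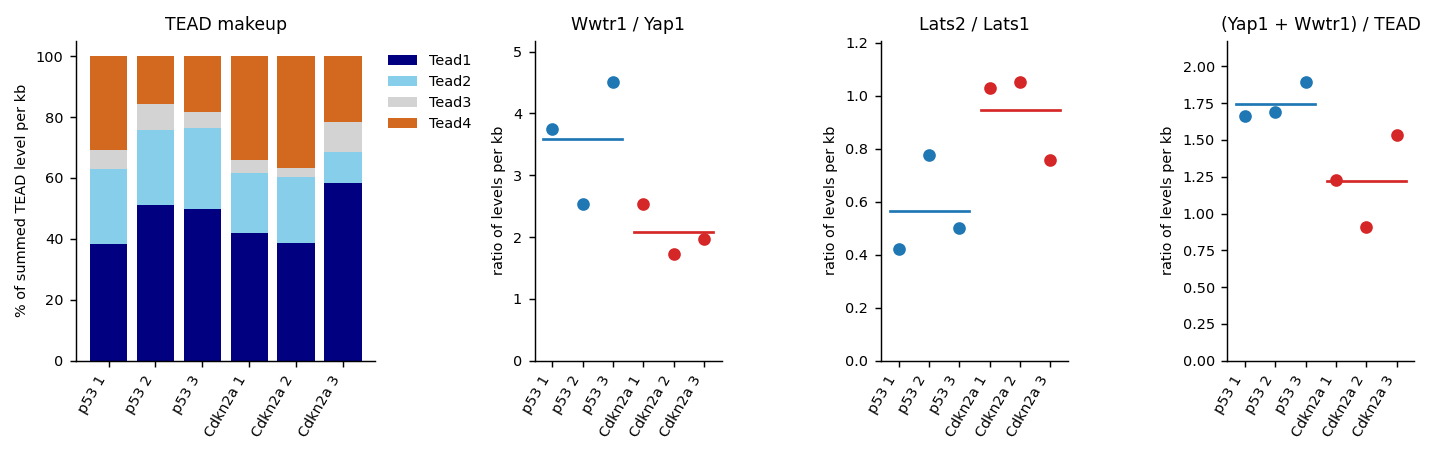
Makeup of the TEAD family as % of the summed TEAD level per kilobase of exon (stacked bars, left) and ratios of levels per kilobase (points, with a line at each genotype's mean) for *Wwtr1* over *Yap1*, *Lats2* over *Lats1* and YAP plus TAZ over TEAD, in Nf1/p53 dKO (blue) and Nf1/Cdkn2a dKO (red) lines 1 to 3. *Tead1* takes 38.2 to 58.2% of the bars, and Nf1/Cdkn2a dKO line 3 has the smallest *Tead2* share, 10.3%.

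*Lats2* showed the largest fitted difference of the 10 genes. This kinase, which phosphorylates YAP and TAZ and is itself a target of their activity, stood at 29.6, 64.8 and 40 CPM in Nf1/p53 dKO lines 1, 2 and 3 (44.8 ± 18.1, n = 3) and at 95.5, 98.6 and 108 CPM in Nf1/Cdkn2a dKO lines (101 ± 6.31). No culture of one genotype reached those of the other, and the difference was 2.25-fold (log2 fold change 1.17, SE 0.29, interval 0.48 to 1.86, edgeR adjusted p = 0.0871). Leaving out each line in turn gave log2 fold changes from 0.94 to 1.55, with adjusted p from 0.0659 to 0.202.

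*Lats1*, the second LATS kinase, differed less. Its levels were 73.2, 87.5 and 83.7 CPM in Nf1/p53 dKO lines, against 96.9, 98.7 and 149 CPM in Nf1/Cdkn2a dKO lines (81.4 ± 7.41 and 115 ± 29.6). Every Nf1/Cdkn2a dKO line was higher, most of all line 3 (log2 fold change 0.5, SE 0.2, interval 0.01 to 0.98, edgeR adjusted p = 0.216). Cultures of Nf1/Cdkn2a dKO line 1 (82.8 to 110 CPM) still overlapped those of Nf1/p53 dKO line 2 (83.4 to 91.2 CPM). Per length of summed exons, *Lats2* was below *Lats1* in all Nf1/p53 dKO lines, at ratios of 0.423, 0.776 and 0.5. In the Nf1/Cdkn2a dKO it was near *Lats1* in lines 1 and 2, at 1.03 and 1.05, and below it in line 3, at 0.756. These ratios overlapped, because Nf1/Cdkn2a dKO line 3, with the most *Lats1*, lay under Nf1/p53 dKO line 2. Which kinase was the more abundant depended on the length used, since with the longest transcript the ratios were 0.561, 1.03 and 0.663 against 1.37, 1.39 and 1.

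The targets *Ankrd1* and *Amotl2* had fitted log2 fold changes of opposite sign. *Ankrd1*, a nuclear ankyrin-repeat protein also made in heart and skeletal muscle, stood at 209, 169 and 237 CPM in Nf1/p53 dKO lines and at 148, 190 and 97.6 CPM in Nf1/Cdkn2a dKO lines (205 ± 34.4 and 145 ± 46.2). Nf1/Cdkn2a dKO line 3 was lowest and Nf1/p53 dKO line 3 highest, the groups overlapped at Nf1/p53 dKO line 2, and the log2 fold change was -0.5 (SE 0.27, interval -1.14 to 0.14, edgeR adjusted p = 0.318). *Amotl2*, an angiomotin that binds YAP and activates LATS, stood at 145, 250 and 73.4 CPM against 188, 262 and 297 CPM (156 ± 88.8 and 249 ± 55.3). Its log2 fold change was 0.67 (SE 0.43, interval -0.36 to 1.71, edgeR adjusted p = 0.403), and Nf1/p53 dKO line 2 lay above Nf1/Cdkn2a dKO line 1. Per length *Ankrd1* had the highest mean of the 10 genes in either genotype, at 71.1 CPM per kilobase for Nf1/p53 dKO against 50.3 for Nf1/Cdkn2a dKO. It ranked first in every Nf1/p53 dKO line. In Nf1/Cdkn2a dKO line 3 it stood at 33.8 CPM per kilobase, below *Amotl2* at 47.2 and *Wwtr1* at 45.6.

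Markers of skeletal muscle are given beside *Ankrd1*. The 10 marker genes examined summed to 60.7 to 328 CPM in Nf1/p53 dKO lines and 2.21 to 8.63 CPM in Nf1/Cdkn2a dKO lines. Over all genes tested, 48.2% had a fitted log2 fold change above 0 and 1.8% were called. Among the markers, all 8 that were tested had a fitted log2 fold change below 0 and 1 was called. That gene, *Myf5*, which commits cells to the muscle lineage, stood at 28, 24.2 and 27.6 CPM against 0, 0 and 0.0156 CPM (edgeR adjusted p = 0.00672). *Myod1*, another such factor, stood at 1.75, 0.269 and 204 CPM in Nf1/p53 dKO lines 1, 2 and 3, where *Ankrd1* stood at 209, 169 and 237 CPM. *Myod1* had 0 counts in the Nf1/Cdkn2a dKO lines, which allows up to 0.0481 CPM, counting error only. There *Ankrd1* stood at 148, 190 and 97.6 CPM. *Pax7* had at most 2 counts in any line. The part of muscle gene expression in the *Ankrd1* values was not tested, and in bulk RNA fewer cells of a type and less RNA per cell cannot be told apart.

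**Figure D3:**
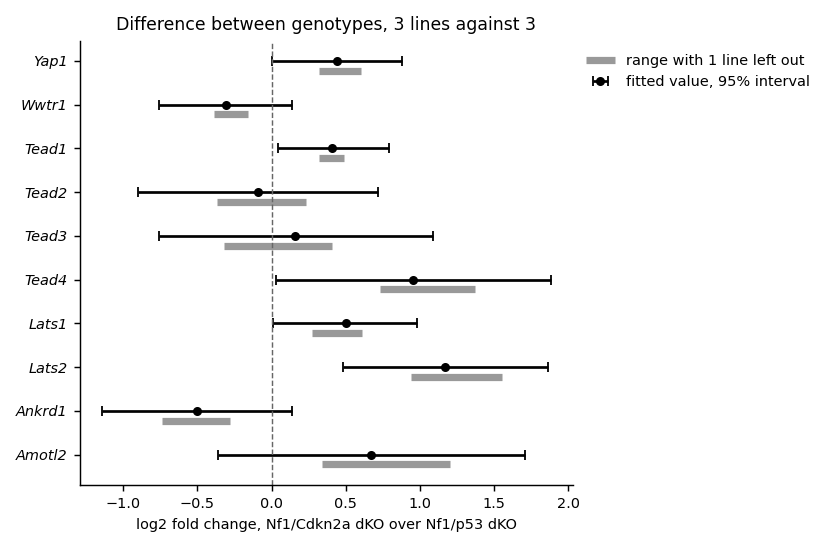
Fitted log2 fold change of each gene (horizontal axis, Nf1/Cdkn2a dKO over Nf1/p53 dKO, 3 lines against 3), with black bars for the 95% interval and grey bars for the range when each line is left out in turn. The *Lats2* interval, 0.48 to 1.86, lies farthest from 0, and the grey bars of *Tead2* and *Tead3* cross 0.

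Within a genotype, most of the 10 genes differed among lines by more than the spread between cultures. By edgeR's quasi-likelihood F test on 9 cultures, 9 of the 10 genes were called among the Nf1/p53 dKO lines, where 79.7% of all genes were called, and 8 among the Nf1/Cdkn2a dKO lines, where 54.2% were. *Tead2* was the exception in the Nf1/p53 dKO (adjusted p = 0.209), while *Tead1* and *Lats2* were the exceptions in the Nf1/Cdkn2a dKO (adjusted p = 0.066 and 0.292). The widest span was that of *Amotl2* in the Nf1/p53 dKO, 3.4-fold between lines 3 and 2, followed there by *Lats2* at 2.19-fold and *Tead4* at 2.16-fold. In the Nf1/Cdkn2a dKO the widest were *Tead2* at 2.64-fold, *Tead3* at 2.47-fold, *Tead4* at 2.11-fold and *Ankrd1* at 1.95-fold, and each of these spans ran between lines 2 and 3. Nf1/Cdkn2a dKO line 3 held the highest level of 6 of the 10 genes over all lines and the lowest level of 2. Of all genes tested, 18.7% were highest and 16.9% lowest in that line.

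The spread can be divided into parts by the sums of squares of log2(CPM + 0.5) over the 18 cultures. For *Lats2*, 76.1% lay between genotypes, 22.5% between lines of a genotype and 1.36% between cultures of a line, and for *Yap1* the parts were 56.4, 41.4 and 2.24%. *Tead2* and *Tead3* were the reverse, with 90 and 92.6% between lines and 5.55 and 0.661% between genotypes. *Tead1* had the largest part between cultures, 23.1%. The medians over all genes tested were 22.9% between genotypes, 47.9% between lines and 12.8% between cultures. Ordered by level, *Ankrd1* and *Tead4* had all 6 lines separated, in that the cultures of neighbouring lines did not overlap, whereas 4 of the 5 neighbouring pairs overlapped for *Tead1*.

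The rest of the pathway was read from lists of its known genes. The kinase cassette upstream of LATS (*Stk3*, *Stk4*, *Sav1*, *Mob1a* and *Mob1b*) had 0 of 5 genes called, all 5 fitted higher in Nf1/Cdkn2a dKO lines and 2 without overlap (14.8% of all genes in that direction), with a median log2 fold change of 0.39. Its extremes were *Stk3* (MST2), at 127, 48.9 and 54.8 CPM against 121, 151 and 122 CPM (log2 fold change 0.77, SE 0.38), and *Mob1a* (0.13, SE 0.13). Of 18 upstream activators and scaffolds, which include *Nf2* (merlin), the FAT4 and DCHS1 cadherins and the TAO and MAP4K kinases, none was called, 13 were fitted higher and 5 lower, and the median was 0.17. The highest was *Wwc1* (KIBRA, 0.85, SE 0.36) and the lowest *Map4k1*, a kinase known mainly from blood cells, at 2.64, 3.45 and 3.29 CPM against 1.52, 0.951 and 1.05 CPM (-1.41, SE 0.35, edgeR adjusted p = 0.0866).

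Of 10 inhibitors of the cassette, the STRIPAK phosphatase subunits, AJUBA-family proteins and RASSF6, none was called and the median was 0.04. *Ajuba*, a LIM protein that binds and restrains LATS, was highest, at 24.4, 37.7 and 24.8 CPM in Nf1/p53 dKO lines against 60.8, 100 and 78.7 CPM in Nf1/Cdkn2a dKO lines, without overlap (log2 fold change 1.46, SE 0.26, edgeR adjusted p = 0.0511). Among the 4 VGLL genes, whose proteins compete with or replace YAP on TEAD, 2 were tested and neither was called, *Vgll3* with a log2 fold change of 0.67 (SE 0.44) and *Vgll4* with 0.33 (SE 0.22). *Vgll1* had no count in any library. *Vgll2*, also not tested, stood at 0.116, 6.02 and 0.622 CPM in Nf1/p53 dKO lines against 0 in the Nf1/Cdkn2a dKO lines. By edgeR at an unadjusted p under 0.05, the lists with no call held 6 of 35 genes tested (17.1%, against 22.4% of all genes). These were, named after their values were seen, *Mob1b*, *Wwc2*, *Map4k1*, *Strn3*, *Ajuba* and *Limd1*.

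**Figure D4:**
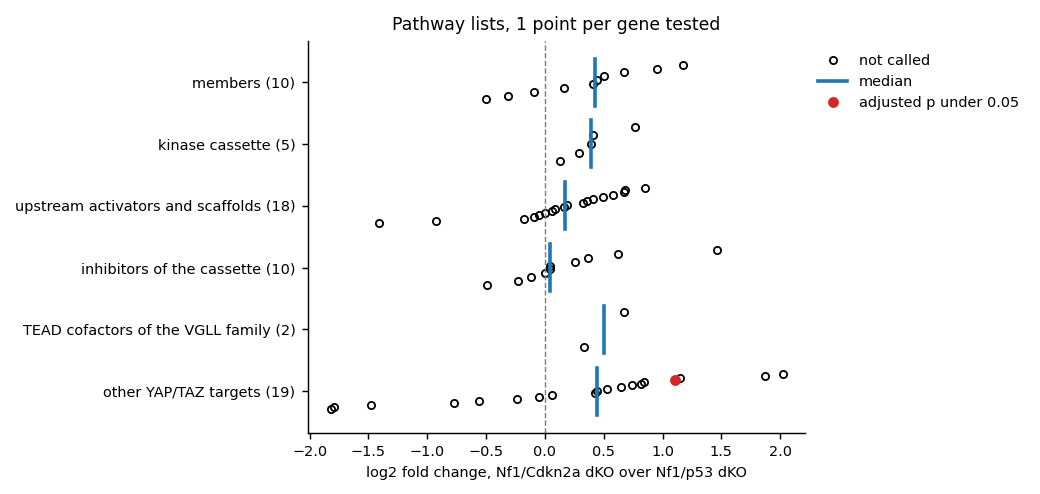
Log2 fold change (horizontal axis, Nf1/Cdkn2a dKO over Nf1/p53 dKO) of each gene tested in the 10 genes of the report and in 5 pathway lists, with open circles for genes not called, a filled red circle for the gene called and a blue bar at each list's median. The number of genes tested is in brackets, and the called gene is *Arhgef17* at 1.11.

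Of 19 other genes known as YAP/TAZ targets, among which *Ptpn14* is also in the list of upstream genes, 1 was called, 12 were fitted higher in the Nf1/Cdkn2a dKO and 7 lower, and the median log2 fold change was 0.44. Of all genes tested, 1.8% were called and 48.2% were fitted higher, with a median of -0.02. The called gene, *Arhgef17*, stood at 123, 131 and 131 CPM in Nf1/p53 dKO lines and rose to 281, 216 and 334 CPM in Nf1/Cdkn2a dKO lines (log2 fold change 1.11, SE 0.19, edgeR adjusted p = 0.0465). The highest fitted value was that of *F3*, tissue factor, at 38.8, 58.2 and 20.4 CPM against 77.1, 130 and 270 CPM (2.02, SE 0.56, edgeR adjusted p = 0.106). The lowest was *Nuak2*, a kinase of the AMPK family, at 3.63, 16.9 and 0.927 CPM against 1.91, 2.74 and 1.42 CPM (-1.82, SE 0.97, edgeR adjusted p = 0.319). Lines did not overlap for 8 of the 19 targets, 7 of them higher in the Nf1/Cdkn2a dKO, beside 31.4% and 14.8% of all genes. The same 8 of the 19 had an unadjusted p under 0.05 by edgeR, beside 22.4% of all genes. Named after their values were seen, they were *Myof*, *Asap1*, *Axl*, *F3*, *Crim1*, *Dock5* and *Arhgef17*, all higher, and *Gadd45a*, which was lower.

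Several well-known targets varied widely among lines of one genotype, and the genes named here were chosen after their values were seen. *Ccn2* (listed as *Ctgf*), a matricellular protein, stood at 51.3, 519 and 12 CPM in Nf1/p53 dKO lines 1, 2 and 3 and at 391, 171 and 732 CPM in Nf1/Cdkn2a dKO lines. *Ccn1* (listed as *Cyr61*) stood at 320, 470 and 115 CPM against 397, 652 and 575 CPM, and *Crim1* at 83.6, 166 and 23 CPM against 307, 225 and 464 CPM. In all 3, and in *Amotl2*, Nf1/p53 dKO line 3 was lowest and line 2 highest of that genotype. *Axl*, a receptor tyrosine kinase, was more even, at 1240, 1240 and 937 CPM against 2020, 1770 and 1940 CPM (log2 fold change 0.74, SE 0.17, edgeR adjusted p = 0.0736).

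Of the 19 targets, 10 had their lowest level of the 6 lines in Nf1/p53 dKO line 3, as did 25.5% of all genes tested, and none had it in Nf1/Cdkn2a dKO line 3, as did 16.9% of all genes. The order of the Nf1/p53 dKO lines in *Amotl2* and *Yap1* (line 2 over 1 over 3) was shared by 8 of the 19 targets and by 19.6% of all genes. *Wwtr1* and *Ankrd1* had line 3 highest and line 2 lowest in that genotype, an order shared by 1 target, *Rbms3*, and also by 19.6% of all genes. Among the Nf1/Cdkn2a dKO lines the counts ran the other way, with the order of *Wwtr1* (line 3 over 1 over 2) shared by 7 of the 19 targets and 22.3% of all genes, and that of *Yap1* and *Amotl2* (line 3 over 2 over 1) by 3 targets and 16.2% of all genes. These counts are descriptions, since genes are not independent and the same 3 lines underlie each.

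**Figure D5:**
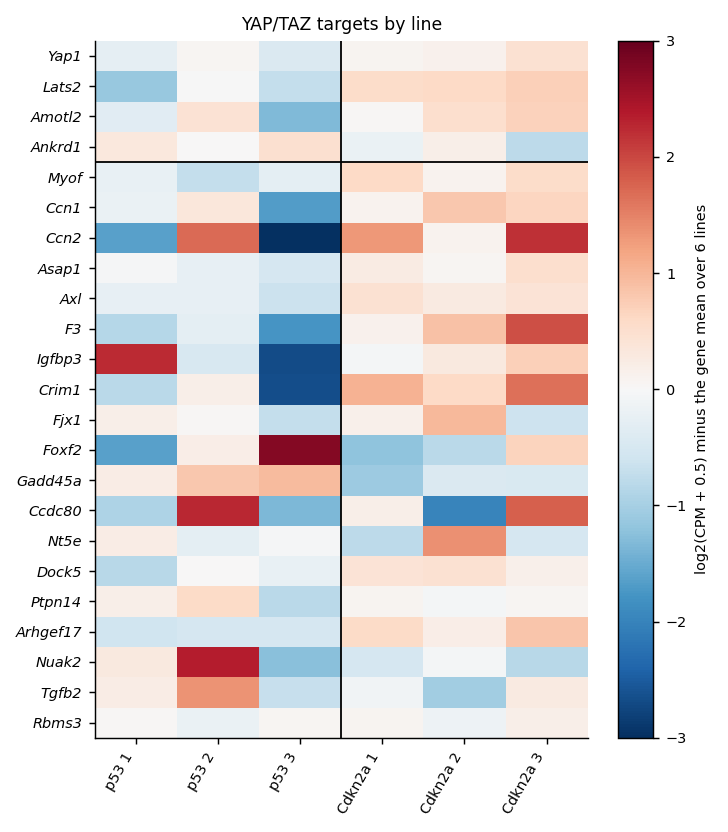
Level of 4 of the 10 genes (above the horizontal line) and of 19 other YAP/TAZ targets (below it) in Nf1/p53 dKO lines 1 to 3 and Nf1/Cdkn2a dKO lines 1 to 3, as log2(CPM + 0.5) minus the gene's mean over the 6 lines, from blue (lower) to red (higher). The column of Nf1/p53 dKO line 3 is blue in most rows, with *Ccn2* at 12 CPM, while *Ankrd1* is red there.

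Genes that start within 1 Mb of each of the 10 genes were also read, positions being those of GENCODE M21 on GRCm38. *Yap1* (chr9:7931999-8004596, minus strand) had 14 such genes tested, of which 1 was called and 7 did not overlap, beside 1.8% and 31.4% of all genes, with a median log2 fold change of 0.81, against -0.02 over all genes. The called gene was *Mmp10*, a secreted matrix protease whose start lies 502.2 kb from that of *Yap1*, at 5.67, 1.29 and 0.857 CPM against 66.5, 369 and 195 CPM (6.33, SE 1.05, edgeR adjusted p = 0.0465). *Mmp10* and its neighbours *Mmp3*, *Mmp12*, *Mmp1a*, *Mmp1b* and *Mmp13*, named after their values were seen, had log2 fold changes of 2.31 to 6.33. The other genes near *Yap1* had -0.93 to 0.15, except *AK129341* at 1.47. Of the 7 genes without overlap, only *Gm10709* was lower. *Birc2* and *Birc3*, which lie between the protease genes and *Yap1* and were named after their values were seen, had log2 fold changes of -0.05 (SE 0.2) and 0.06 (SE 0.2). Near *Tead2* (chr7:45215753-45233644, plus strand), 2 of 75 genes were called (1.8% over all genes), *Lmtk3* (-3.02, SE 0.52, edgeR adjusted p = 0.047) and the apoptosis gene *Bax*, a known p53 target (0.81, SE 0.14, edgeR adjusted p = 0.0465), and the median was 0.06. Around the other 8 genes none of the 117 neighbours tested was called by edgeR (28, or 23.9%, at an unadjusted p under 0.05, against 22.4% of all genes), and the medians were -0.09 to 0.2. Named after their values were seen, all 17 neighbours of *Lats2* except *Cryl1*, *Gjb2*, *Gm20430* and *3110083C13Rik* were lowest in Nf1/p53 dKO line 1, as was *Lats2*. Of all genes, 13.5% were lowest there. *Sap18* was at 91.2, 173 and 154 CPM against 185, 186 and 195 CPM. Near *Lats1*, *Ginm1*, *Tab2*, *Ppil4*, *Katna1*, *Pcmt1* and *Lrp11*, of 10 neighbours, were highest in Nf1/Cdkn2a dKO line 3, as was *Lats1* (18.7% of all genes). Whether neighbours move together was not tested.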

How the data were processed

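RNA-seq counts were analysed for 18 libraries. Values deposited by the authors are raw counts (whole reads per gene, not normalized). The submitters' processing notes name CASAVA, STAR 2.5, DESeq2 1.14.1 and GRCm38, while the counting tool, its strand setting and the annotation are not given in the sources used here. Of the 10 genes, 6 overlap a gene on the opposite strand, which held at most 22 counts in any library. Depth was 19560535 to 28312207 counts per library.

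Counts of the 3 cultures of a line were summed, filtered with filterByExpr (minimum count 10, minimum total 15), scaled by TMM and tested by quasi-likelihood in edgeR 4.0.16 (R 4.3.3), with Benjamini-Hochberg adjustment over all 15207 genes. DESeq2 1.42.0, limma 3.58.1 and matplotlib 3.10.9 served the alternatives and plots. Standard errors are the log2 fold change over the root of F. The study names DESeq2, which was run as an alternative on lines and on cultures. Differences among lines used edgeR on the 9 cultures of a genotype. Lengths are summed exons of GENCODE M21. The steps were tested on simulated counts. Any 2 cultures of a line differed beyond sampling noise (chi-square per degree of freedom 3.5 to 27.1), so each counted as a library. Where cultures are replicates, p-values measure only the spread between these samples, which may be technical.

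The 10 genes, the lists and the tests were chosen with earlier results of these data known. Named are the 10 genes, the targeted genes, each gene called in a list, the highest and lowest of each pathway list, and called neighbours within 1 Mb, and other names are said to be chosen later or belong to marker lists. Proteins were not analysed here. The lowest gene of 1 list is not reported here. Alternatives were 18 cultures as samples (edgeR, DESeq2, limma-voom), DESeq2 on lines, 3 other scalings, 2 other filters, line or culture number as a block, each line or culture left out, and the longest transcript as length.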

Additional observations from a re-analysis of the deposited data

How the results depend on the processing

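Of 170 values of the 10 genes recomputed under other settings, 139 kept their direction and their side of the threshold, 29 kept their direction and passed it, and 2 reversed, both without Nf1/Cdkn2a dKO line 3, where the log2 fold change was 0.23 for *Tead2* and -0.32 for *Tead3*, against -0.37 and 0.41 without Nf1/Cdkn2a dKO line 2. With the 18 cultures taken as separate samples, 8 of the 10 genes (all but *Tead2* and *Tead3*) and 6096 genes in all were called by edgeR, and 8 and 6409 by DESeq2, which treats cultures of one tumor as independent. With limma-voom and the line as a random effect, 5 of the 10 (*Yap1*, *Tead4*, *Lats2*, *Ankrd1* and *Amotl2*) and 2173 genes were called, and with DESeq2 on the 6 lines 1 (*Lats2*) and 2171. Raw total counts gave 424 genes called and none of the 10, and moved the median log2 fold change of all genes from -0.02 to -0.16, with no reversal among the 10.

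The line number as a replicate block gave 0 genes called (2740 at an unadjusted p under 0.05, with *Tead4* and *Lats2* among them), and the culture number as a replicate block on 18 cultures gave 5681 genes and 7 of the 10. Deviations of samples with the same number were weakly correlated (-0.13 to -0.083 for lines and -0.053 to 0.093 for cultures). The labels do not say whether equal numbers mark a shared batch, and weak correlations cannot settle it. With 1 line left out, edgeR called 0 to 172 genes and 0 of the 10. The count was 172, 27 and 107 without Nf1/p53 dKO line 1, 2 or 3, and 0, 2 and 23 without Nf1/Cdkn2a dKO line 1, 2 or 3. Each genotype had 3 tumors, and each of the 10 genes had at least 246 counts per culture. Among the lines of a genotype, the alternatives called 9 of the 10 genes in the Nf1/p53 dKO and 8 or 9 in the Nf1/Cdkn2a dKO. The planned comparison with a gene length from the count table was not run, because only annotation lengths were at hand.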
